A study of Mus musculus with 10 samples.

Results

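The genes described here are 10 enzymes that make or break down prostaglandins and related lipid mediators, taken by symbol from the 40503 genes of the deposited table: Ptgs1, Ptgs2, Ptges, Ptgds, Ptgis, Hpgd, Ptgr1, Alox5, Alox12 and Alox15. All 10 were found, with 32 transcripts among the 84046 of the transcript table. They were measured by polyA RNA-seq in bulk gonadal fat of female C57BL/6 mice aged 12 weeks, in 5 libraries with the genotype label Med19 KO and 5 labelled WT. The KO mice carry an adipose-specific inducible deletion of Med19, a Mediator subunit, and per the labels received tamoxifen at 100 mg/kg for 5 days, with fat taken 14 days afterwards. The sources used here do not say whether the WT mice received tamoxifen or which promoter drives the recombinase. Sample titles carry a number each, used here to name the libraries (KO 1, WT 2 and so on), and give no batch.

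Med19 itself averaged 6.79 ± 0.854 RPKM with the KO label and 6.70 ± 0.893 RPKM with the WT label (mean ± SD, n = 5 each, exact permutation p = 0.881). Its level thus gave no check of the genotype, and "KO-labelled" is used throughout. RPKM, reads scaled by gene length and library size, is a level per length. Levels of different genes are set side by side on this scale and depend on the gene length used. The library sizes behind the values, recovered as described under processing, ran from 15199268 to 20206357 reads in the KO-labelled group and from 14460044 to 16207292 in WT. Adipocyte markers were abundant in every library, with a summed level of 2966 to 3587 RPKM in KO-labelled libraries against 5185 to 7877 RPKM in WT. Fabp4 made up most of this sum, averaging 2694 RPKM in KO-labelled and 4639 RPKM in WT libraries (log2 change -0.77). The log2 changes of the other adipocyte markers were -2.08 (Cidec), -1.21 (Adipoq), -1.18 (Plin1) and -1.01 (Lep, not called). Markers of ovary, oviduct and uterus summed to 0.744 to 1.47 RPKM.

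As background, arachidonic acid cut from membrane lipids feeds both branches of this pathway. Cyclooxygenases turn it into prostaglandin H, which separate synthases convert to prostaglandins E, D and I or to thromboxane. Hpgd and Ptgr1 then inactivate some of these products in turn, prostaglandin E among them. Lipoxygenases add oxygen to the same acid to make leukotrienes, lipoxins and hydroxy fatty acids. In fat, prostaglandin E acts on adipocyte receptors to restrain lipolysis, whereas much of the lipoxygenase activity belongs to myeloid cells.

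The members that passed the test, Hpgd and Alox5, are shown with the bases around their RefSeq start site (assembly GRCm38.p6, 100 bases before and 30 from the start onward, 5′ to 3′ on the gene's strand). RefSeq promoters were at hand for 8 of the 10 members. Capitals mark matches, on either strand, to TATAAA (the TATA box) and to GGGCGG (the GC box). The Hpgd window is chr8:56294452-56294581 on the plus strand, and the Alox5 window is chr6:116461149-116461278 on the minus strand.
Hpgd: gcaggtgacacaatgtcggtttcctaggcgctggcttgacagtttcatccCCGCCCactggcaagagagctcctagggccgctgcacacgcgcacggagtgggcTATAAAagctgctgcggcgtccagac
Alox5: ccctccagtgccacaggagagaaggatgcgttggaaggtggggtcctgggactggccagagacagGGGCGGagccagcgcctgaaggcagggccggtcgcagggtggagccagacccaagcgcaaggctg
The Hpgd window held TATAAA from base 5 after the start and GGGCGG on the opposite strand from base -50. The Alox5 window held GGGCGG from base -35. Of 32851 RefSeq windows of this length, 6.38% held TATAAA and 27.5% held GGGCGG. The matches are descriptions of these letters only.

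Hpgd and Alox5 rose in the KO-labelled libraries, and no tested member was called lower. The call of Alox5 ended in 13 of 18 alternative fits. Of the 10 members, 9 passed the filter on low values (at least 0.5 RPKM in at least 5 libraries), and 2 of these 9 were called higher and 0 lower by limma at an adjusted p under 0.05. Over all 17038 genes tested the same rule called 4.00% higher and 1.95% lower, or 5.95% in all. Unadjusted p was under 0.05 with a higher KO-labelled level for 5 of the 9 members, against 19.9% of all genes. The median log2 change of the 9 was 0.30, beside 0.089 for all genes tested, and 8 of them had a change above 0, as did 68.7% of all genes. With median-ratio scaling the median of the 9 was 0.21, beside 0.0076 for all genes tested. In bulk tissue, a change in the number of cells of one type and a change in RNA per cell cannot be told apart.

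**Figure D1:**
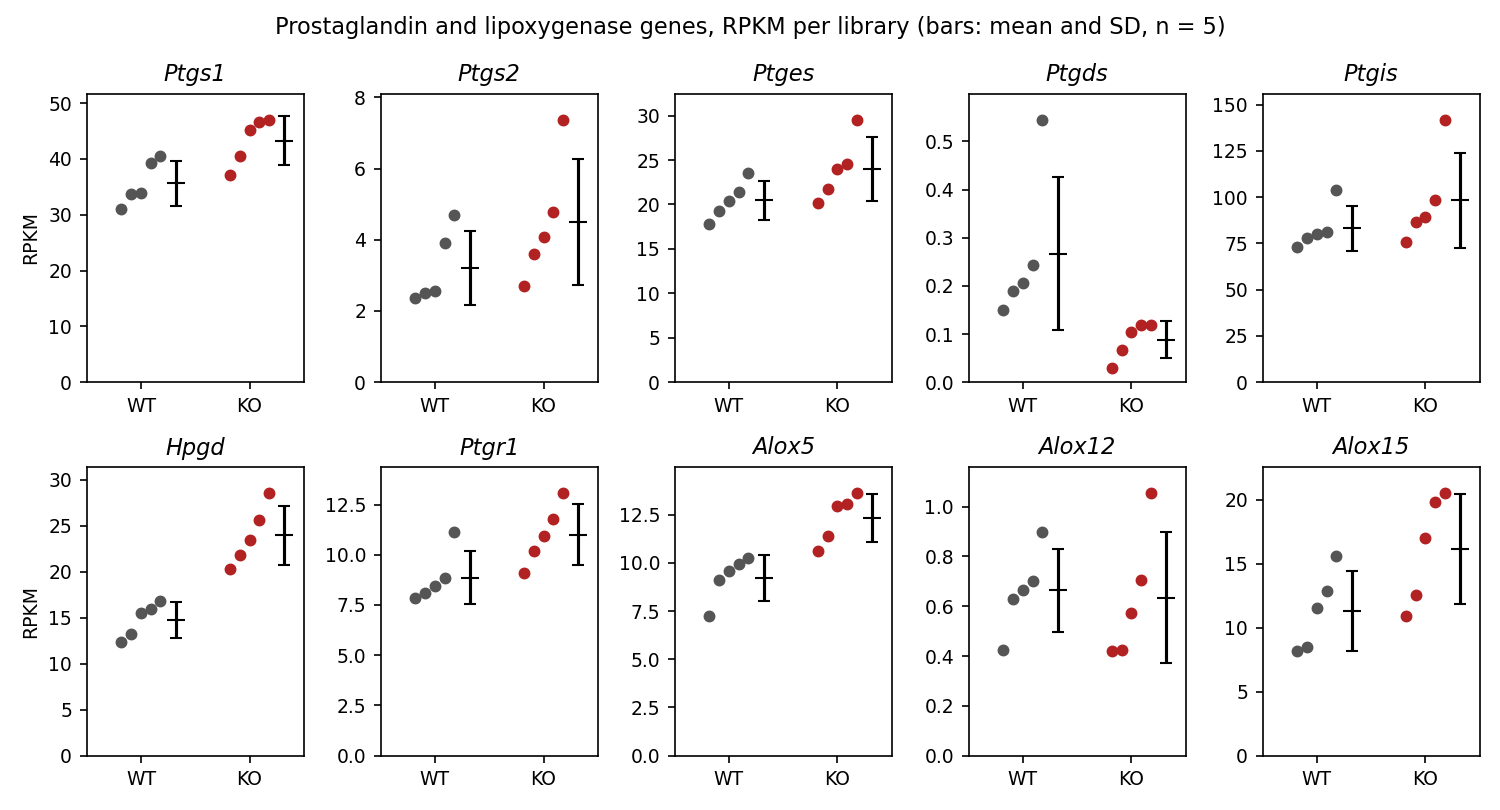
RPKM of each member in each library (points, sorted by value within a group; the 5 WT libraries in grey, the 5 KO-labelled in red), with the mean and SD as bars; every axis starts at 0. The groups are separate for Hpgd and Alox5, with KO-labelled libraries above, and for Ptgds, with KO-labelled libraries below at under 0.12 RPKM. The other 7 members overlap. Of all tested genes, 6.96% were separate with KO-labelled libraries above and 2.15% with them below.

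By level, the order was Ptgis (90.7 RPKM over all 10 libraries), Ptgs1 (39.5), Ptges (22.2), Hpgd (19.4), Alox15 (13.7), Alox5 (10.8), Ptgr1 (9.94), Ptgs2 (3.86), Alox12 (0.649) and Ptgds (0.178). Ptgis was above Ptgs1, and Ptgs1 above Ptges, in 10 of 10 libraries. Neighbours in the middle were not separated in every library: Ptges was above Hpgd in 7 of 10, Hpgd above Alox15 in 9, Alox15 above Alox5 in 7 and Alox5 above Ptgr1 in 6. From Ptgr1 down, each gene was above the next in 10 of 10. By gene RPKM, the constitutive cyclooxygenase gene Ptgs1 and the prostacyclin synthase gene Ptgis were thus the most abundant members in these libraries. The inducible cyclooxygenase gene Ptgs2 was lower than both.

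The cyclooxygenase genes make the first committed step. Ptgs1 ranged from 31.0 to 40.5 RPKM in WT and from 37.1 to 47.0 RPKM in the KO-labelled libraries, 3 of which lay above every WT library. Its log2 change was 0.28 (SE 0.094, limma adjusted p = 0.102), so it did not pass. Ptgs2 was at 2.56 (WT 2), 3.91 (WT 9), 2.36 (WT 19), 4.70 (WT 86) and 2.51 RPKM (WT 89). In the KO-labelled libraries it was at 4.78 (KO 1), 3.61 (KO 4), 7.37 (KO 7), 4.09 (KO 8) and 2.70 RPKM (KO 17). KO 7 was the highest and WT 86 exceeded 3 KO-labelled libraries. The log2 change of Ptgs2 was 0.41 (SE 0.25, 95% interval -0.14 to 0.96, limma adjusted p = 0.340), and 0.23 without KO 7.

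The synthases act next. Ptges, the inducible prostaglandin E synthase gene, ranged from 17.8 to 23.5 RPKM in WT and from 20.1 to 29.5 RPKM in KO-labelled libraries (log2 change 0.22, SE 0.11, limma adjusted p = 0.235). The change of Ptges was 0.14 without KO 4 and 0.13 with median-ratio scaling. Ptgis, the prostacyclin synthase gene, was at 77.7 (WT 2), 81.3 (WT 9), 104 (WT 19), 79.9 (WT 86) and 72.9 RPKM (WT 89). Its KO-labelled levels were 86.6 (KO 1), 142 (KO 4), 75.5 (KO 7), 98.4 (KO 8) and 89.3 RPKM (KO 17). One library in each group stood high, WT 19 and KO 4, and the groups overlapped, with a log2 change of 0.22 (SE 0.16, limma adjusted p = 0.439). The change of Ptgis was 0.078 without KO 4 and 0.12 with median-ratio scaling. The antisense gene 1110018N20Rik shares exonic bases with Ptgis in GENCODE M21 and was at 0.521 ± 0.220 RPKM in KO-labelled and 0.804 ± 0.210 RPKM in WT libraries. The sources used here do not say whether counting used strand.

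Ptgds, the lipocalin-type prostaglandin D synthase gene, had the lowest level of the members. It was at 0.190 (WT 2), 0.207 (WT 9), 0.150 (WT 19), 0.545 (WT 86) and 0.243 RPKM (WT 89), against 0.120 (KO 1), 0.030 (KO 4), 0.0677 (KO 7), 0.119 (KO 8) and 0.105 RPKM (KO 17). All KO-labelled libraries lay below all WT libraries (2-sided exact permutation p = 0.00794, the smallest that this design can give), as did 2.15% of the tested genes. Among 2927 genes with a mean under 0.5 RPKM and a value above 0 in every library, 0.991% were separated in this direction. The values rest on 1 to 3 reads per KO-labelled library and 4 to 13 per WT library. Summed, 12 reads against 33 gave a KO to WT ratio of 0.322 (exact 95% interval 0.152 to 0.640, counting error only). Without WT 86 the mean difference was -0.109 RPKM in place of -0.179 RPKM. Ptgds was below the filter and was not in the fit across genes. Its coding transcripts ENSMUST00000015234 and ENSMUST00000114251 were at 0 in all 10 libraries. The coding ENSMUST00000114259 averaged 0.055 RPKM in KO-labelled and 0.455 RPKM in WT libraries, and was at 0 in 5 libraries. The noncoding ENSMUST00000137417 averaged 0.104 against 0.109 RPKM, and ENSMUST00000144016 0.022 against 0.013 RPKM. None of these transcripts was tested.

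Hpgd and Ptgr1 encode enzymes that switch some prostaglandins off, and Hpgd had the largest log2 change of the 9 tested members. Hpgd encodes 15-hydroxyprostaglandin dehydrogenase, which oxidises the hydroxyl group that prostaglandin receptors need. It was at 16.8 (WT 2), 15.9 (WT 9), 12.3 (WT 19), 15.5 (WT 86) and 13.2 RPKM (WT 89). In the KO-labelled libraries it was at 23.5 (KO 1), 21.8 (KO 4), 28.5 (KO 7), 20.3 (KO 8) and 25.6 RPKM (KO 17). Every KO-labelled library was above every WT library, a separation in this direction that 6.96% of all tested genes also showed. The means were 24.0 ± 3.23 and 14.8 ± 1.91 RPKM (SD, n = 5 each), a 1.60-fold rise (95% interval 1.35 to 1.90) or 0.68 on the log2 scale (SE 0.11, limma adjusted p = 0.00748). Of all tested genes, 98.4% had a smaller log2 change. The value rests on 339 to 879 reads per library, as recovered with a searched gene length.

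The call of Hpgd held in all 18 alternative fits, with log2 changes of 0.59 to 0.74 and adjusted p-values of 0.00608 to 0.0235. Ptgr1, the reductase gene that acts after Hpgd, ranged from 7.86 to 11.1 RPKM in WT and from 9.09 to 13.1 RPKM in KO-labelled libraries. Its log2 change was 0.30 (SE 0.11, limma adjusted p = 0.135), which did not pass. WT 19 and KO 4, the highest libraries for Ptgis, were also the highest of their groups for Ptgr1.

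**Figure D2:**
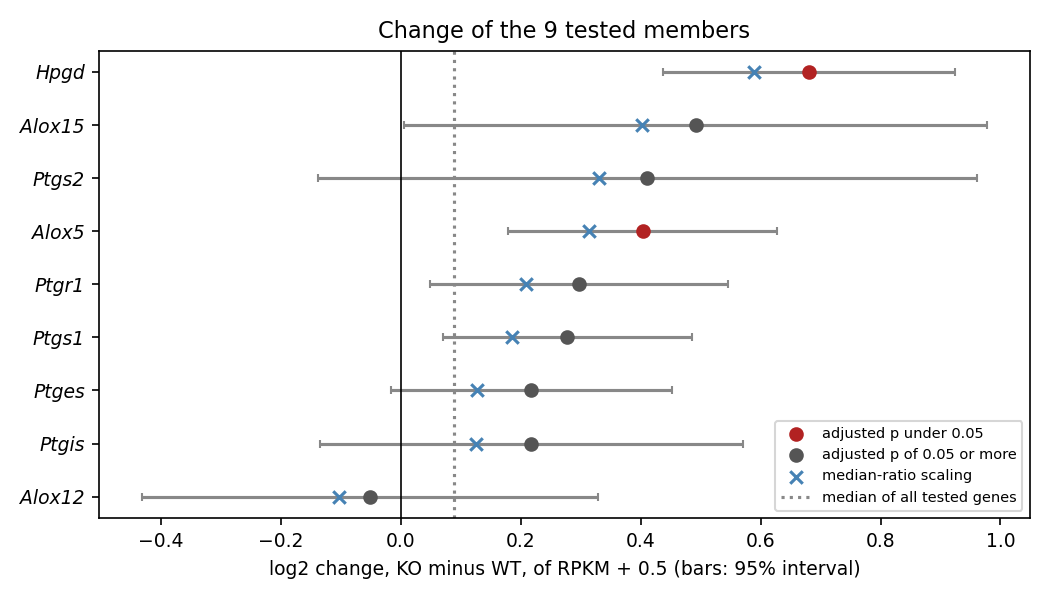
Log2 change (KO-labelled minus WT) of the 9 tested members on the log2(RPKM + 0.5) scale, with limma's 95% intervals as bars; red points passed the adjusted threshold, blue crosses show median-ratio scaling, and the dotted line is the median of all tested genes. Hpgd lies farthest right at 0.68 and Alox12 farthest left at -0.05; each cross lies to the left of its point.

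Compared within each library, where scaling between libraries drops out, the rise of Hpgd was not shown to exceed that of any other member. The log2 ratio of Hpgd to each of the other 8 tested members was higher in the KO-labelled group by 0.19 (to Alox15) to 0.81 (to Alox12). None of the 8 passed after adjustment (exact permutation, smallest adjusted p = 0.127), and 3 of the 8 had an unadjusted p under 0.05. The ratio to Ptgs1 differed by 0.42 (exact permutation p = 0.0397, adjusted p = 0.127), with 3 of 5 KO-labelled libraries above every WT library. When 1 library was left out, all 8 differences stayed above 0, but that to Alox15 ran from 0.030 to 0.34 and that to Ptgs2 from 0.040 to 0.36, both lowest without KO 17. These ratios were chosen after the values were seen.

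Among the lipoxygenases, Alox5 alone passed the test, and its difference from Alox12 or Alox15 was not tested. Alox5 encodes the enzyme that starts leukotriene synthesis. It was at 10.3 (WT 2), 9.59 (WT 9), 9.95 (WT 19), 7.23 (WT 86) and 9.11 RPKM (WT 89). In the KO-labelled libraries it was at 10.6 (KO 1), 12.9 (KO 4), 13.0 (KO 7), 13.6 (KO 8) and 11.4 RPKM (KO 17). The groups did not overlap, as was so in this direction for 6.96% of all tested genes, and KO 1 and WT 2 were close. The means were 12.3 ± 1.25 and 9.23 ± 1.20 RPKM (SD, n = 5 each), a 1.32-fold rise (95% interval 1.13 to 1.54) or 0.40 on the log2 scale (SE 0.10, limma adjusted p = 0.0445).

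This call was close to the threshold and ended in 13 of 18 alternative fits. Among others, it ended with median-ratio scaling (log2 change 0.31, adjusted p = 0.142), with quantile normalization (0.33, adjusted p = 0.128), and without any 1 library other than WT 2 (adjusted p of 0.0470 to 0.0958 over the 10 fits). Myeloid and mast cell markers were measured beside it, and their sums were not tested. The summed level of 5 macrophage markers was 698 to 857 RPKM in KO-labelled libraries and 489 to 686 RPKM in WT, with 0 of the 5 called. That of 5 neutrophil markers was 417 to 787 against 165 to 354 RPKM (2 of 5 higher). Most of this sum was S100a8, at a mean of 323 against 127 RPKM, and S100a9, at 257 against 110 RPKM. S100a9 and Retnlg were called higher, and S100a8, Ly6g and Ngp did not pass. The sum of 6 mast cell markers was 23.4 to 30.4 against 14.5 to 18.5 RPKM (3 of 4 tested higher). No marker in these lists was at 0 in all libraries. Their part in the rise of Alox5 was not tested.

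**Figure D3:**
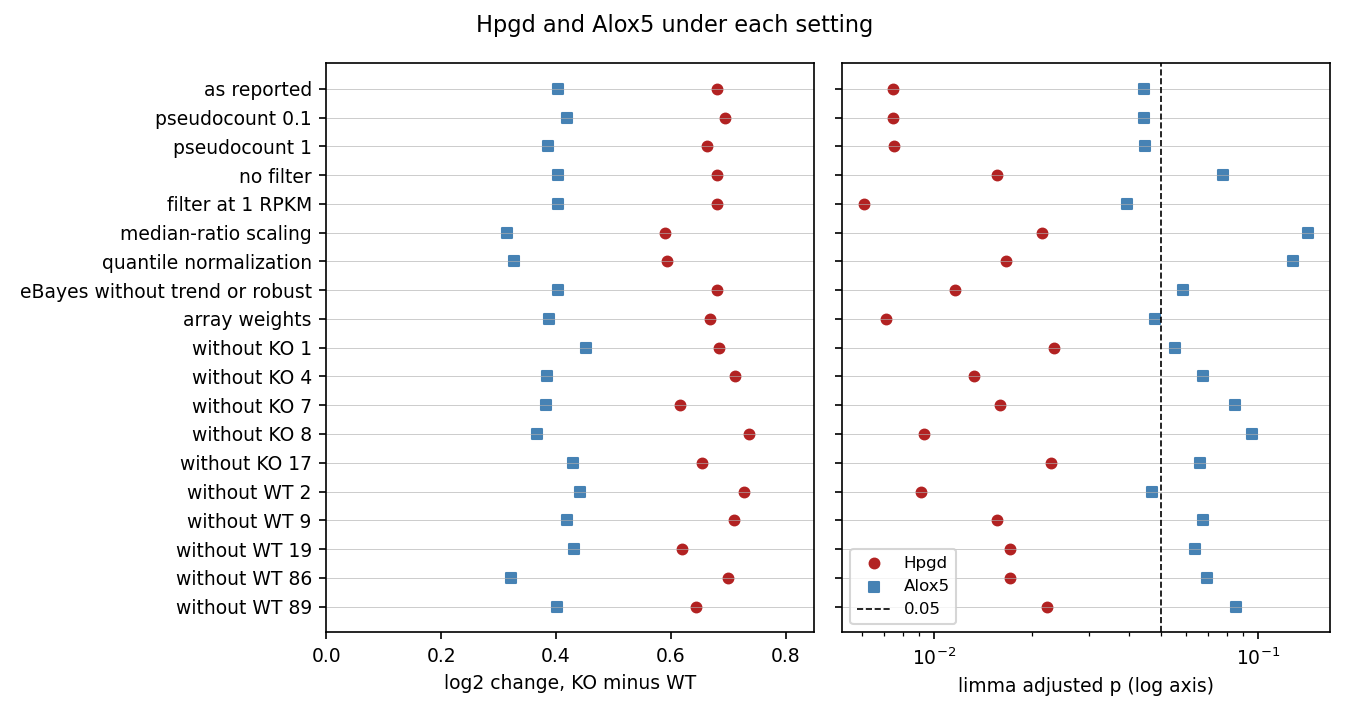
Log2 change (left) and limma adjusted p on a log axis (right) of Hpgd (circles) and Alox5 (squares) as reported and under each of 18 other settings; the dashed line is at 0.05. Hpgd stays left of the line in every fit, while Alox5 crosses it in 13.

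Alox15, whose product in mice is largely the 12-hydroxy fatty acid and which marks resident peritoneal macrophages and eosinophils, was at 11.5 (WT 2), 15.6 (WT 9), 8.47 (WT 19), 8.14 (WT 86) and 12.9 RPKM (WT 89). Its KO-labelled levels were 17.0 (KO 1), 19.8 (KO 4), 12.5 (KO 7), 20.5 (KO 8) and 10.9 RPKM (KO 17). KO 1, KO 4 and KO 8 were above every WT library, and KO 7 and KO 17 were within the WT range. The log2 change of 0.49 (SE 0.22, 95% interval 0.0053 to 0.98) did not pass (limma adjusted p = 0.198). Markers of large peritoneal macrophages summed to 57.8 to 71.4 RPKM in KO-labelled libraries and 50.3 to 59.9 RPKM in WT, with 0 of 4 called. Eosinophil markers summed to 7.15 to 11.0 against 4.37 to 6.66 RPKM, with 0 of 3 tested called. Their part in the level of Alox15 was not tested. Alox12, the platelet-type enzyme gene, was low, at 0.426 to 0.897 RPKM in WT and 0.419 to 1.05 RPKM in KO-labelled libraries, on 26 to 66 reads per library. Its log2 change was -0.05 (SE 0.17, 95% interval -0.43 to 0.33, limma adjusted p = 0.891), and the sign turned when any 1 of KO 1, KO 4 or WT 86 was left out.

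Beside Hpgd, the summed level of 5 fibroblast and progenitor markers was 387 to 456 RPKM in KO-labelled libraries and 250 to 310 RPKM in WT. Of these, Dpt and Lum were called higher, and Pdgfra, Dpp4 and Pi16 did not pass. Mesothelial markers summed to 250 to 301 against 224 to 268 RPKM, with 0 of 5 called, and endothelial markers to 76.6 to 112 against 88.0 to 104 RPKM, with Kdr called lower. Their part in the rise of Hpgd was not tested.

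Transcripts of the members gave 0 calls among the 25 tested (limma), where 0.544% of all 44475 tested transcripts were called (0.0922% higher and 0.452% lower). At an unadjusted p under 0.05, 4 of the 25 were higher and 1 lower, beside 5.88% and 3.56% of all tested transcripts. The 1 Hpgd transcript in the table, ENSMUST00000034026, was at 23.1 ± 3.07 RPKM in KO-labelled libraries and 15.7 ± 1.73 RPKM in WT (log2 change 0.53, SE 0.11, limma adjusted p = 0.0927), so the transcript table did not give the call that the gene table did. The coding Alox5 transcript ENSMUST00000026795 was at 7.96 ± 1.48 against 5.12 ± 1.08 RPKM (log2 change 0.60, SE 0.17, limma adjusted p = 0.255).

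Within some genes the annotated transcripts differed more between libraries than the gene did. For Ptgs1, the noncoding transcript ENSMUST00000144319 ranged from 18.7 to 40.5 RPKM in WT and from 26.0 to 79.4 RPKM in KO-labelled libraries (log2 change 0.84, limma adjusted p = 0.480). The coding transcript ENSMUST00000062069 was at 30.3 ± 3.51 and 32.9 ± 5.08 RPKM. For Ptgis, the coding transcripts ENSMUST00000018113 and ENSMUST00000088041 were at similar levels in WT, 42.3 ± 11.0 and 43.6 ± 3.74 RPKM. In KO 4 the first of them reached 101 RPKM and the second 34.0 RPKM. The share of a gene's summed transcript level held by its most abundant transcript was compared for 7 members, and none passed after adjustment (exact permutation, smallest adjusted p = 0.333, for Alox5, 45.3% ± 5.09 against 37.6% ± 4.09).

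The wider pathway was described by 7 lists with 51 genes, of which 40 passed the filter. Of these, 4 were called higher and 3 lower (17.5%, beside 5.95% of all genes), with a median log2 change of 0.092, near the 0.089 of all genes. The calls of Pla2g5, Pla2g16 and Mgst3 were kept in all 18 alternative fits, those of the other 4 genes were not.

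Arachidonate release held changes in both directions. Pla2g16, an adipocyte phospholipase A2 gene, was at 10.1 ± 2.01 RPKM in KO-labelled and 20.2 ± 2.81 RPKM in WT libraries (log2 change -0.97, SE 0.14, limma adjusted p = 0.00324). The secreted phospholipase gene Pla2g5 went the other way, from 0.523 to 7.12 RPKM (log2 change 2.89). Of 8 tested genes these were the 2 calls, and the cytosolic phospholipase gene Pla2g4a did not pass (log2 change 0.29, limma adjusted p = 0.0667). The most abundant were Mgll, the monoacylglycerol lipase gene, at 58.0 ± 5.87 against 74.1 ± 12.7 RPKM, and Daglb at 17.5 ± 2.42 against 15.8 ± 1.76 RPKM, neither called.

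Among the other prostanoid synthases and reductases, 1 of 9 tested genes was called. This was Tbxas1, the thromboxane synthase gene, at 21 ± 1.76 against 16.3 ± 1.56 RPKM (log2 change 0.35, SE 0.079, limma adjusted p = 0.0315). Its call ended with median-ratio scaling (0.26, adjusted p = 0.104), with quantile normalization and no filter. It also ended when any 1 of KO 4, KO 7, KO 8, WT 9, WT 86 and WT 89 was left out. The most abundant, Fam213b, was at 20.4 ± 3.38 and 24.0 ± 3.54 RPKM, and Cbr1, a carbonyl reductase gene, at 18.6 ± 2.12 and 20.7 ± 2.72 RPKM. Hpgds, the haematopoietic prostaglandin D synthase gene, was at 6.57 and 6.14 RPKM, above Ptgds on the same per-length scale.

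Receptors were measured for each main prostanoid, and 7 of 9 passed the filter. Ptger3, the inhibitory prostaglandin E receptor gene of adipocytes, was the most abundant at 56.8 ± 5.28 against 52.3 ± 10.6 RPKM, followed by Ptger1 at 13.3 ± 1.18 against 12.5 ± 1.4 RPKM. Ptger2, a receptor gene coupled to cyclic AMP, was the 1 call, at 5.02 ± 0.392 against 3.92 ± 0.420 RPKM (log2 change 0.32, SE 0.081, limma adjusted p = 0.0438). That call ended in 13 of 18 alternative fits, including median-ratio scaling (0.24, adjusted p = 0.148) and 9 of the 10 fits without 1 library, all but that without WT 19. The prostacyclin receptor gene Ptgir had a log2 change of 0.33 (limma adjusted p = 0.0914). None of the 3 transporter genes was called, the most abundant being Abcc4 at 6.27 RPKM and Slco2a1, the prostaglandin uptake carrier gene, at 5.51 RPKM over all libraries.

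In the leukotriene branch, 1 of 8 enzyme genes was called higher and 2 lower. Alox5ap, which encodes the protein that presents arachidonate to Alox5, was the most abundant at 179 ± 25.4 against 138 ± 15.2 RPKM and did not pass (log2 change 0.37, limma adjusted p = 0.0692). Ltc4s, the leukotriene C synthase gene, was at 76.2 ± 14.1 against 62.7 ± 8.58 RPKM (limma adjusted p = 0.222). Mgst3, a microsomal glutathione transferase gene, fell from 75.5 ± 18.3 to 35.9 ± 6.09 RPKM (log2 change -1.04, SE 0.17, limma adjusted p = 0.00804), and Mgst2 from 2.95 to 2.00 RPKM (-0.47, limma adjusted p = 0.0318). The call of Mgst2 ended with no filter and when any 1 of KO 1, KO 7 and the WT libraries other than WT 2 was left out. Of 5 adipocyte markers, 4 were also called lower, and their part in the fall of Pla2g16, Mgst3 and Mgst2 was not tested. Ggt5, a gamma-glutamyl transferase gene that converts leukotriene C to D, was at 22.1 against 16.8 RPKM (log2 change 0.40, limma adjusted p = 0.0421), a call that ended in 13 of 18 alternative fits, with median-ratio scaling (0.31, adjusted p = 0.141) among them and without any 1 library other than WT 9.

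The list of receptors for leukotrienes and lipoxins had 0 calls among 5 tested genes (limma). Its most abundant gene, Cmklr1, encodes the chemerin receptor and is not a leukotriene or lipoxin receptor gene. Cmklr1 was at 58.6 ± 4.2 against 69.6 ± 5.54 RPKM (limma adjusted p = 0.0778). Next was Cysltr1, at 4.59 ± 0.727 against 3.64 ± 0.296 RPKM (limma adjusted p = 0.113). The other lipoxygenase genes, Alox8, Alox12b, Alox12e and Aloxe3, were all below the filter, with means of 0.015 to 0.29 RPKM.

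**Figure D4:**
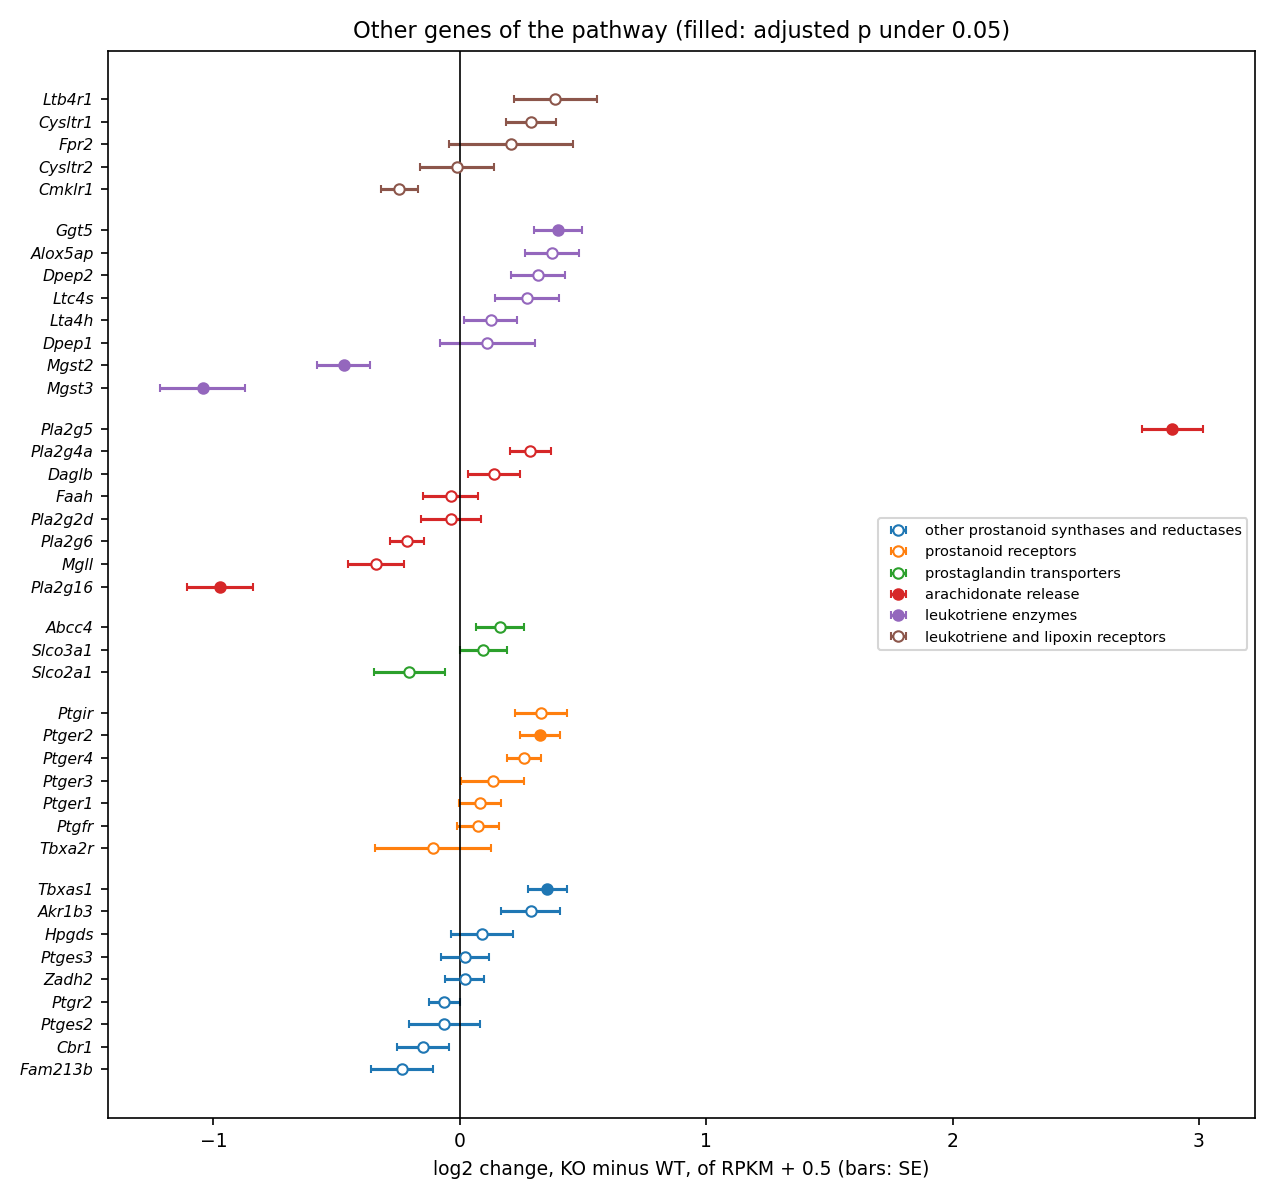
Log2 change (KO-labelled minus WT, log2(RPKM + 0.5) scale) of the 40 tested pathway genes, grouped by list in colour, with limma's SE as bars; filled points passed the adjusted threshold. Pla2g5 at 2.89 lies far to the right, Mgst3 at -1.04 and Pla2g16 at -0.97 to the left; Mgst2 is at -0.47 and the others lie between -0.34 (Mgll) and 0.40 (Ggt5).

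The genes whose deviations from the group means were most like those of the called members were ranked among 11308 tested genes with a plain symbol and a mean of at least 2 RPKM. For Hpgd these were Chd1, Slc25a35 and Maged1, with Pearson correlations of 0.957, 0.943 and 0.933 over the 10 libraries (Spearman 0.903, 0.915 and 0.915). For Alox5 they were Dusp3, Abcg1 and Lyrm2, at 0.966, 0.943 and 0.922 (Spearman 0.891, 0.927 and 0.733). Over all 9 tested members, the 3 best correlations of each lay between 0.908 and 0.993. The values are the highest of many and are given as a description. All genes of a library share its depth and its mix of cells. Of these 6 genes, Maged1 was called higher (log2 change 0.35, SE 0.052, limma adjusted p = 0.00414).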

How the data were processed

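The authors deposited RPKM values per gene and per transcript for 10 libraries, the unit being given by the file names. The submitters' processing notes name bcl2fastq, STAR 2.0.4b1, Subread and featureCounts 1.4.52, without their roles. The sources used here do not name the build, the annotation or how transcripts were quantified. Repeated rows, which held equal values, were used once (40770 to 40503 genes, 84752 to 84046 transcripts).

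Library sizes were read from the step that 1 read adds, and the members' reads from these. All 100 member values came out whole within 0.005 reads, with GENCODE M21 exon lengths for 9 members. For Hpgd the length was searched as the shortest one that made its values whole. Its whole values are thus no check, and its reads rest on that length. Genes and transcripts at 0.5 RPKM or more in at least 5 libraries were fitted as log2(RPKM + 0.5) with limma 3.58.1 in R 4.3.3 (statmod 1.5.0), eBayes with trend and robust, 2-sided, with Benjamini-Hochberg adjustment over each whole table. SEs and intervals are limma's, and fold changes understate those of low genes. The fit was tested on simulated data. Nothing in the labels says outright that each library is a separate animal, so p-values measure only the spread between these samples, which may be technical.

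The members and lists were chosen with earlier results of these data known. All members were named, and from each list the called genes and the 2 most abundant tested genes. Hpgds, Pla2g4a, Pla2g6, Ptgir, the other lipoxygenases, the adipocyte and neutrophil markers and the called markers Dpt, Lum and Kdr were named after their values were seen. Likeness was computed for all 9 tested members and is given by gene for the called ones, a choice made after the values were seen.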

Additional observations from a re-analysis of the deposited data

Results flagged for a closer look

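Each of the 10 members was examined in each group of 5 libraries for a single library far from the rest, which makes 20 groups, and chance marks about 1 in 20. In WT 86, Ptgds was at 0.545 RPKM, and its gap to the next WT library was 0.763 of the group's range, above the limit of 0.71. In WT 19, Ptgis was at 104 RPKM, with a gap of 0.729 of the range. The Ptgds value rests on 13 reads.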

How the results depend on the processing

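No paired analysis was possible because the numbers in the sample titles are not shared between KO and WT. The 2 members called higher became 1, Hpgd, with no filter, with either scaling and with eBayes without trend or robust, and were 1 to 2 without 1 library each; the members called lower were 0 throughout. The 4 pathway genes called higher became 1 with no filter, 1 with median-ratio scaling and 1 with quantile normalization. They became 2 with eBayes without trend or robust, 5 with the filter at 1 RPKM, and 1 to 3 without 1 library each. The 3 called lower became 4 with either scaling, 2 with no filter, and 2 to 3 without 1 library each. Pla2g6, not called as reported, was called lower with median-ratio scaling (log2 change -0.30, limma adjusted p = 0.0272). Over all genes, 681 were called higher and 332 lower. The number higher was 292 with no filter, 102 with median-ratio scaling (414 lower), 149 with quantile normalization, and 188 to 689 without 1 library each, where the number lower was 206 to 314. The log2 change of Alox12 turned to 0.017 without KO 1 or WT 86 and 0.015 without KO 4, over a range of -0.17 to 0.017. Without 1 library each, the group difference in the share of the most abundant transcript, in percentage points, turned sign for Alox12 (-2.13 as reported, -3.61 to 0.018), Alox15 (0.787; -1.61 to 2.86), Ptges (-1.13; -2.64 to 1.64) and Ptgis (3.35; -2.51 to 6.24). The cause of these shifts was not tested. Alox12 has no value with the filter at 1 RPKM. Transcripts gave 0 calls in each fit. The difference in Ptgds kept its direction in all 11 alternatives, with an exact permutation p of 0.00794 to 0.0238 (0.0238 without KO 4). Of these alternatives, 10 leave out 1 library. Where the groups do not overlap, leaving out a library cannot turn the direction, so these 10 are no check of it. At 1 to 13 reads per library Ptgds is limited by depth, and Alox12 at 26 to 66 reads less so.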
